A study of Mus musculus with 4 samples.

Results

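Mast cells are tissue-resident immune cells whose cytoplasm is packed with granules of proteases, histamine and heparin. They mature in connective tissue under stem cell factor, which signals through the receptor tyrosine kinase Kit, and they release their granules when IgE bound to its high-affinity receptor is cross-linked by antigen. In the mammary gland they lie in the stroma and the fat pad around ducts and vessels. A set of 10 genes that mark this cell type was examined: the granule proteases *Cma1*, *Mcpt4*, *Tpsb2*, *Tpsab1* and *Cpa3*, the histamine-forming enzyme *Hdc*, the IgE receptor chains *Fcer1a* and *Ms4a2*, the receptor *Kit* and the transcription factor *Gata2*. They were chosen by gene symbol as known markers of the cell type, with earlier results of these data known. All 10 were found among the 22483 named loci of the deposited table, which holds 30506 loci in all, and each had a single row of its own.

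Poly(A) RNA was sequenced from the mammary glands of 4 mice aged 2 months, 2 of genotype *miR-21*+/+ (wild type) and 2 of genotype *miR-21*-/- (knockout), on a mixed background of the strains 129SV, FVB/N and C57BL/6. The *miR-21*-/- mice lack the microRNA miR-21, the labels restrict its loss to no cell type, and no agent was given to either group. The deposited values are FPKM, a level corrected for transcript length and sequencing depth, with a single value per genotype that combines its 2 mice. No spread between mice can be seen, no test was possible and no value below carries an error, so the differences are descriptions of these 2 pooled values. In whole tissue, a different number of mast cells and a different amount of RNA per mast cell cannot be told apart.

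MiR-21 acts by pairing bases 2 to 8 of its mature sequence, the seed, with sites in the 3′ untranslated region (3′ UTR) of messenger RNAs, so the sequences that bear on this genotype are shown first. The mature microRNA is given from RefSeq (GRCm38.p6, chromosome 11, 86584120 to 86584141, minus strand) with its seed in capitals, followed by the 2 places in the longest annotated 3′ UTRs of the mast cell genes that pair with it.

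mmu-miR-21a-5p: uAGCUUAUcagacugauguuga
*Gata2* 3′ UTR: caaactgcATAAGCTtaacccg
*Kit* 3′ UTR: tttccaaagTAAGCTggtttgg

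Capitals in the lower lines mark the bases that match the seed. The *Gata2* window lies on the plus strand of mm9 at chr6:88156360-88156381, in the last of 6 exons, and holds a 7-base match (ATAAGCT). The *Kit* window lies on the plus strand at chr5:76052259-76052280, in the last of 21 exons, and holds a 6-base match (TAAGCT) only. No match of either kind was found in the other 8 genes. The 3′ UTRs of the set ran from 174 to 2177 bases, and 7 of the 10 had at most 294 bases. Of 13028 genes that exceeded 1 FPKM and have a 3′ UTR in the annotation, 6.98% held the 7-base match and 24.3% the 6-base match or longer. Among the 2794 of them with a 3′ UTR of 1400 to 2400 bases, a range that includes *Gata2* (1536 bases) and *Kit* (2177 bases), these shares were 8.63% and 31.5%.

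The FPKM values of the abundant granule proteases were close in both genotypes, and those of *Kit* and *Tpsab1* were further apart. Of the 10 genes, 9 had the larger value in *miR-21*-/- glands and 1 the smaller. Among the 9 genes above 1 FPKM in at least 1 genotype, 8 were higher there. The same held for 44.3% of the 13551 named loci above 1 FPKM in at least 1 genotype (and above 0 in both). Scaled to equal sums over all loci, which subtracts 0.63 from every log2 ratio, 7 of the 9 genes with the larger value turned lower, *Kit* and *Tpsab1* being the exceptions. The median log2 ratio of the named loci was then −0.66. In all, 9 genes exceeded 1 FPKM in at least 1 genotype, and 2 of them, *Tpsab1* and *Fcer1a*, did so in 1 genotype only. *Ms4a2* was under 1 FPKM in both.

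At 2-fold or more, 1 of these 9 genes, *Tpsab1*, was higher in *miR-21*-/- glands, beside 2.03% of the named loci, and 0 were lower, beside 2.52%. At 1.5-fold or more, 2 were higher, *Tpsab1* and *Kit*, beside 5.48% of the named loci, and 0 were lower, beside 6.33%. The median log2 ratio (*miR-21*-/- over *miR-21*+/+) of the 9 genes was 0.24, and that of the 13551 named loci was −0.03, with the middle 50% of those loci between −0.18 and 0.11. *Tpsab1* had passed the minimum of 1 FPKM through its *miR-21*-/- value alone.

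**Figure D1:**
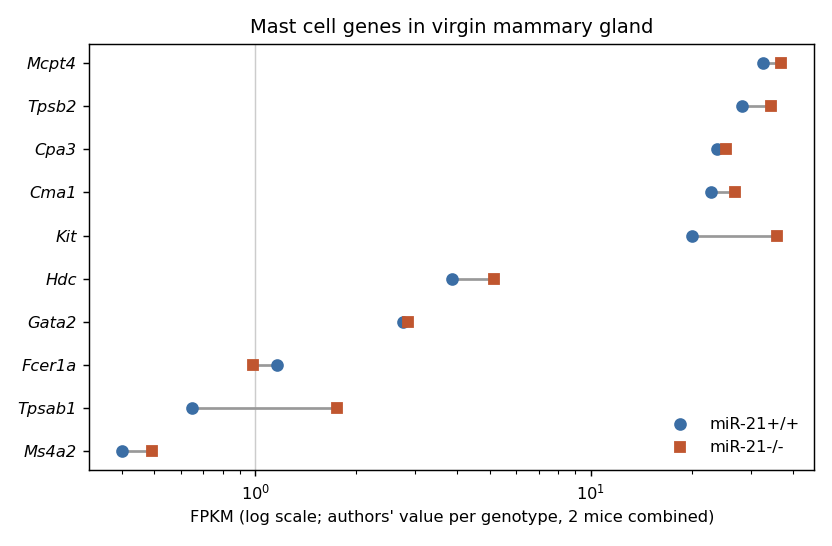
FPKM of the 10 mast cell genes (log axis) in *miR-21*+/+ (circles) and *miR-21*-/- glands (squares), each point the authors' single value for 2 mice, with a line joining the pair and a grey line at 1 FPKM. *Mcpt4*, *Tpsb2*, *Cpa3*, *Cma1* and *Kit* lie between 20.1 and 37.1 FPKM, and the joining lines of *Kit* and *Tpsab1* are the longest.

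*Mcpt4*, which encodes the chymase mMCP-4 of connective tissue mast cells, had the highest level of the set, at 32.7 FPKM in *miR-21*+/+ and 37.1 FPKM in *miR-21*-/- glands. Its log2 ratio was 0.18. *Tpsb2*, which encodes the tryptase mMCP-6, was at 28.3 and 34.5 FPKM, a log2 ratio of 0.29. Both proteases are stored in the granule bound to heparin.

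*Cma1*, which encodes the chymase mMCP-5, was at 22.8 FPKM in *miR-21*+/+ and 26.9 FPKM in *miR-21*-/- glands, a log2 ratio of 0.24. *Cpa3*, which encodes the mast cell carboxypeptidase stored with mMCP-5, was at 23.7 and 25.4 FPKM, a log2 ratio of 0.10. The 4 proteases thus differed between the genotypes by ratios of 1.07 (*Cpa3*) to 1.22 (*Tpsb2*). Scaled to equal sums over all loci, all 4 had the opposite direction, with log2 ratios from −0.53 to −0.34, while the median of named loci was then −0.66.

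The make-up of these 4 proteases, which no scaling of a column can alter, was nearly the same in both genotypes. The FPKM values of the 4 genes summed to 107.5 and 123.9, a log2 ratio of 0.20. Of these sums *Mcpt4* took 30.4% in the wild type and 29.9% in the knockout. *Tpsb2* took 26.3% and 27.9%, *Cpa3* 22.1% and 20.5%, and *Cma1* 21.2% and 21.7%. None of these 4 shares moved by more than 2 percentage points. Outside these sums, *Tpsab1* stood at 0.604% of them in the wild type and at 1.42% in the knockout. *Mcpt2*, a further protease, was at 20.8 and 20.4 FPKM and was not counted, so the shares depend on the genes chosen.

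*Tpsab1*, which encodes the second tryptase, mMCP-7, was at 0.649 FPKM in *miR-21*+/+ and 1.75 FPKM in *miR-21*-/- glands, a log2 ratio of 1.43. Of the named loci, 99.2% had a lower log2 ratio. Among the 1575 named loci with a mean of 0.5 to 2 FPKM, 6.67% were 2-fold or more higher in *miR-21*-/- glands. On the log2(FPKM + 1) scale its value was 0.74, under 2-fold. *Tpsb2* exceeded *Tpsab1* 43.6-fold in the wild type and 19.7-fold in the knockout.

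The tryptases lie next to each other on chromosome 17 of mm9, *Tpsab1* on the minus strand (25480190 to 25482507) and *Tpsb2* on the plus strand (25503278 to 25505037, as the table gives it). Over 830 aligned bases their longest annotated transcripts were 76.0% identical. Of the 36-base windows of *Tpsb2*, 0.382% also occurred in *Tpsab1*, and 0 of its 50-base windows did. The read length is not given in the sources used here.

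The chymases share a cluster on chromosome 14. *Cma1* lies at 56560288 to 56563498, and the table gives *Mcpt4* and its neighbours *Mcpt2* and *Mcpt9* a common locus from 56645574 to 56681223, within which the annotation places *Mcpt4* at 56678581 to 56681147 on the minus strand. Of the 50-base windows of *Mcpt4*, 6.16% also occurred in transcripts of *Cma2* or *Mcpt9*, so a part of its reads could be split between copies. *Cma2* had 46.5% such windows and a level of 0.995 FPKM in *miR-21*+/+ and 1.03 FPKM in *miR-21*-/- glands, and both values are uncertain for that reason. *Mcpt2*, known as a protease of mucosal mast cells, was at 20.8 and 20.4 FPKM, while *Mcpt1*, the other mucosal protease, was at 0.0203 and 0.0245 FPKM. *Mcpt2* had 0 windows of 50 bases in common with another gene, while 2.24% of its 36-base windows also occurred in *Mcpt1*. It has 2 rows, and the values given are those of the row with the higher mean.

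*Kit*, the receptor for stem cell factor, was at 20.1 FPKM in *miR-21*+/+ and 35.9 FPKM in *miR-21*-/- glands. Its log2 ratio was 0.84, a ratio of 1.79, and 97.0% of the 13551 named loci had a lower one. Of the 5870 named loci with a mean of 10 to 100 FPKM, the range that holds *Kit*, 2.88% were 1.5-fold or more higher in *miR-21*-/- glands. *Kit* had the fifth highest level of the 10 genes in wild-type glands and the second highest in *miR-21*-/- glands. Without replicate values, the order of neighbouring genes could not be set against a spread. When both columns were scaled to equal sums over all loci, the log2 ratio of *Kit* was 0.21 and the median of named loci was −0.66.

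*Kit* therefore differed from the 4 abundant proteases in a way that scaling cannot remove. It stood at 18.7% of the summed level of the 4 proteases in *miR-21*+/+ glands and at 28.9% in *miR-21*-/- glands, a log2 difference of 0.63. Against *Cpa3* alone it stood at a ratio of 0.846 and 1.41. Its ligand gene *Kitl* (stem cell factor) was at 31.2 FPKM in *miR-21*+/+ and 26.3 FPKM in *miR-21*-/- glands, a log2 ratio of −0.24.

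*Kit* is also expressed by luminal progenitors of the mammary epithelium and by melanocytes, so markers of both were read beside it. All 4 luminal progenitor markers were higher in *miR-21*-/- glands, with a median log2 ratio of 0.85 and a summed level of 67.2 FPKM in *miR-21*+/+ and 138 FPKM in *miR-21*-/- glands. *Elf5*, a transcription factor of these progenitors, was at 18.6 and 36 FPKM. The log2 ratios of the 4 markers ran from 0.20 for *Aldh1a3* to 1.85 for *Ehf*, and that of *Kit* lay within this range. The epithelial lists as a whole had the larger values in *miR-21*-/- glands too, with all 5 luminal genes (median 0.50) and all 4 myoepithelial genes (median 0.66) higher. After scaling to equal sums over all loci these medians were 0.22 for the progenitor, −0.13 for the luminal and 0.03 for the myoepithelial markers. The median of named loci was then −0.66.

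Of the 5 melanocyte markers, *Tyr* and *Mlana* exceeded 1 FPKM. *Tyr* was at 1.02 and 0.959 FPKM and *Mlana* at 0.287 and 2.19 FPKM, while *Dct* and *Tyrp1* did not exceed 0.0522 FPKM in either genotype. The summed level of the 5 was 1.74 and 3.59 FPKM. The part of epithelium or melanocytes in the difference of *Kit* was not tested.

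*Hdc*, histidine decarboxylase, which makes histamine, was at 3.86 FPKM in *miR-21*+/+ and 5.14 FPKM in *miR-21*-/- glands, a log2 ratio of 0.41. After scaling to equal sums over all loci this ratio was −0.22 and the median of named loci −0.66. Relative to the summed proteases it stood at 3.59% and 4.14%. *Slc18a2*, which loads amines into the granule, was at 1.22 and 1.44 FPKM. *Tph1*, the first enzyme of serotonin synthesis in mouse mast cells and in mammary epithelium, was at 1.5 and 14.6 FPKM, a log2 ratio of 3.29. It stood apart from every other gene of the granule and amine list, whose other members lay between −0.88 and 0.24.

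*Gata2*, a transcription factor needed for the mast cell lineage and also expressed by endothelium, was at 2.76 FPKM in *miR-21*+/+ and 2.85 FPKM in *miR-21*-/- glands. Its log2 ratio was 0.04, or −0.59 after scaling to equal sums over all loci, where the median of named loci was −0.66. Its 3′ UTR holds the 7-base match to miR-21 shown above, and the part of that match in its level was not tested. The 6 endothelial markers had a median log2 ratio of 0.07 and a summed level of 147 and 155 FPKM. The table's locus of *Gata2* starts at 88148658 on chromosome 6, whereas the annotated gene starts at 88143885, so the upstream promoter and first exon lie outside the measured locus.

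The IgE receptor consists of the IgE-binding chain *Fcer1a*, the signal-amplifying chain *Ms4a2* and the signalling chain *Fcer1g*. *Fcer1a* was at 1.16 FPKM in *miR-21*+/+ and 0.985 FPKM in *miR-21*-/- glands, a log2 ratio of −0.24 and the only negative one of the set. *Ms4a2* was at 0.401 and 0.491 FPKM, the lowest level of the set, with a log2 ratio of 0.29. On the log2(FPKM + 1) scale the log2 ratios of *Fcer1a* and *Ms4a2* were −0.12 and 0.09. *Fcer1g*, which many myeloid cells share, was far more abundant at 53.1 and 57.7 FPKM.

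**Figure D2:**
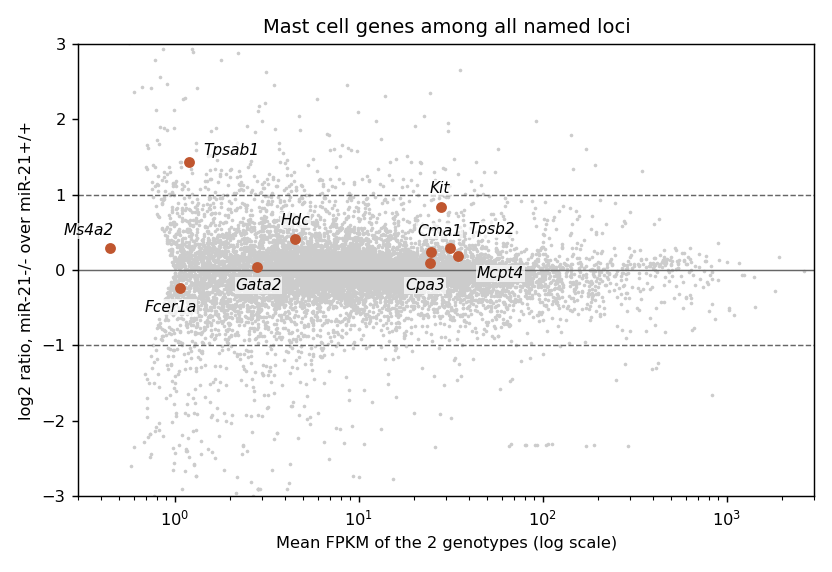
Log2 ratio (*miR-21*-/- over *miR-21*+/+) against mean FPKM (log axis) for named loci above 1 FPKM in at least 1 genotype (grey) and the 10 mast cell genes (orange), with dashed lines at 2-fold; 46 loci lie outside the axes. The 4 abundant proteases sit just above 0, *Kit* lies above them at 0.84, and *Tpsab1* at 1.43 lies among the scattered loci of low level.

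Promoters from RefSeq, 250 bases before to 50 bases after the annotated start site, were found for 8 of the 10 genes. They were searched on both strands for AGATAA and TGATAA, forms of the GATA motif that Gata2 and related factors recognise. Forms ending in G (AGATAG and TGATAG) were not counted, so the motif below means the forms ending in A. The motif occurred in 4 of the 8 genes, *Cpa3*, *Mcpt4*, *Fcer1a* and *Ms4a2*, and in 10.4% of the 12217 promoters of genes above 1 FPKM or 18.6% of all 32851 promoters. The shares are taken per promoter, whereas the 8 genes have 10 promoters in all, and *Ms4a2* is not among the genes above 1 FPKM. An E-box of the kind bound by Mitf (CACGTG or, on either strand, CACATG) occurred in 1 of the 8, *Fcer1a*, and in 17.9% of the promoters of genes above 1 FPKM. The promoters of 2 abundant proteases and of *Ms4a2*, which held the motif 3 times, are shown because they carry it, with the motif in capitals. These windows are 5′ to 3′ on the minus strand, were taken from RefSeq (GRCm38.p6) and were placed in mm9 by an exact match.

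*Cpa3*, chr3:20142031-20142330, motif from base −46: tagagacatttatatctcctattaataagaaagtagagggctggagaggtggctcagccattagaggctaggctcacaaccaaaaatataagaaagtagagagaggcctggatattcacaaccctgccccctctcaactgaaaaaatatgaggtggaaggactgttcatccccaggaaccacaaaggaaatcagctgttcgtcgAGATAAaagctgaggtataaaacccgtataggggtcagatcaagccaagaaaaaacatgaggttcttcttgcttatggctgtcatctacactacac
*Mcpt4*, chr14:56681098-56681397, motif from base −103: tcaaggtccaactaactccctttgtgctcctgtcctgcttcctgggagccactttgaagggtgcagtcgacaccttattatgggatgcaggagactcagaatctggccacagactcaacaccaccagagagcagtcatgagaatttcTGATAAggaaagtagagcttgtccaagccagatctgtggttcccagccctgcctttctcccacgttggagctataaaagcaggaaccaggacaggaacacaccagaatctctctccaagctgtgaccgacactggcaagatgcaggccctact
*Ms4a2*, chr19:11698160-11698459, motifs from bases −224, −37 and −11: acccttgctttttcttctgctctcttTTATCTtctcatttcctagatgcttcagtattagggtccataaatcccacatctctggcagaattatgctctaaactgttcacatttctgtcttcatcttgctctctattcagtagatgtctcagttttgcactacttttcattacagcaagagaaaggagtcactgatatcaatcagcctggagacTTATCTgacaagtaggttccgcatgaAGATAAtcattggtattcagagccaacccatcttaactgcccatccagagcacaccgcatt

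Positions count back from the start site. The genes with the motif span the range of levels in the set, from *Mcpt4* at the top to *Ms4a2* at the bottom, and their log2 ratios ran from −0.24 to 0.29. The promoters of *Kit*, *Cma1*, *Hdc* and *Gata2* held neither AGATAA nor TGATAA on either strand in these windows. Of the forms not counted, *Hdc* held TGATAG and *Cma1* held CTATCT, the reverse complement of AGATAG. The split of the genes by motif thus depends on the forms searched. A match is a description of the sequence and not a bound site.

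Genes that act with this set in mast cells were taken as 8 lists of 70 genes, of which 54 exceeded 1 FPKM. In the knockout 29 of them were higher and 25 lower, and their median log2 ratio was 0.03. At 1.5-fold or more, 6 were higher and 4 lower, and at 2-fold or more 3 were higher and 2 lower. Beside the 5.48% and 6.33% of all named loci at 1.5-fold, the first counts are 11.1% and 7.41% of the 54, and the shares of all named loci at 2-fold are 2.03% and 2.52%. *Gzmb*, *Cma2* and *Adora3*, among the genes counted as higher, exceeded 1 FPKM in the knockout only, which fixed their direction.

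All 6 surface receptors of connective tissue mast cells above 1 FPKM were higher in *miR-21*-/- glands, beside 44.3% of all named loci. Their median log2 ratio was 0.30. Scaled to equal sums over all loci it was −0.33, and the median of named loci was −0.66. *Adora3*, an adenosine receptor, was at 0.952 and 1.38 FPKM and passed the minimum through the knockout alone, which fixed its direction. *Mrgprb2*, the receptor for basic secretagogues, was at 1.17 FPKM in *miR-21*+/+ and 1.22 FPKM in *miR-21*-/- glands, and the related *Mrgprb1* at 1.91 and 2.49 FPKM. *Il1rl1*, the interleukin 33 receptor, was at 2.42 and 2.68 FPKM. The most abundant of the 6 were *C5ar1*, at 8.94 and 11.2 FPKM, and *Cysltr1*, at 2.85 and 3.43 FPKM. The part of other cell types in these values was not tested.

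Of the 7 genes for growth and survival signals above 1 FPKM, ligands and receptors together, 2 were higher and 5 lower in the knockout, with a median log2 ratio of −0.24. At 1.5-fold or more, 1 was higher and 2 lower, beside 5.48% and 6.33% of all named loci. *Il33*, an alarmin of epithelial and stromal cells, was at 21.0 FPKM in *miR-21*+/+ and 10.4 FPKM in *miR-21*-/- glands, a log2 ratio of −1.01. *Tslp*, another epithelial cytokine, was at 2.23 and 1.46 FPKM. *Il4ra*, the interleukin 4 receptor chain, was at 10.4 and 28.2 FPKM, a log2 ratio of 1.43. *Il3* and *Il9*, cytokines that promote mast cell growth, were listed at 0 in both genotypes.

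In IgE receptor signalling, 4 of 11 genes were higher in the knockout and 7 lower, beside 44.3% of all named loci higher. Their median log2 ratio was −0.17, and *Syk*, also listed, was not matched by name. *Lat*, an adaptor of mast cells and T cells, was at 8.60 FPKM in *miR-21*+/+ and 2.22 FPKM in *miR-21*-/- glands. It was the only gene of that list past 1.5-fold, beside 6.33% of all named loci 1.5-fold or more lower and 5.48% higher. *Lyn*, the kinase that phosphorylates the receptor, was at 14.0 and 18.3 FPKM. The 5 B and T cell markers, read beside *Lat*, summed to 34.7 and 6.11 FPKM, and their part in its difference was not tested.

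Among the transcription factors, *Mitf*, which acts with Gata2 in mast cells, was at 5.63 FPKM in *miR-21*+/+ and 5.98 FPKM in *miR-21*-/- glands. *Runx1* was at 6.37 and 11.1 FPKM and *Stat5a* at 22.8 and 39.0 FPKM, the 2 of 9 factors that were 1.5-fold or more higher, beside 5.48% of all named loci. Both are also expressed in mammary epithelium. In the eicosanoid list, *Alox5*, which starts leukotriene synthesis, was at 2.81 and 4.8 FPKM, while *Ltc4s*, the leukotriene C4 synthase, was at 33.3 and 32.7 FPKM. *Srgn*, the proteoglycan core of the granule, was at 45.0 and 39.3 FPKM, and *Unc13d*, a factor of granule release, at 2.61 and 1.42 FPKM. *Gzmb*, a granule protease better known from cytotoxic lymphocytes, was at 0.529 and 1.09 FPKM.

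**Figure D3:**
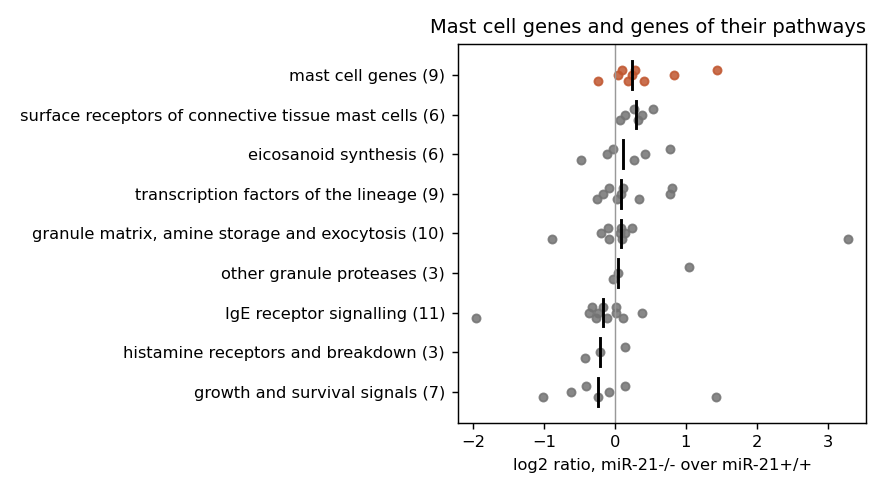
Log2 ratio (*miR-21*-/- over *miR-21*+/+) of the mast cell genes (orange) and of 8 lists of genes that act with them (grey), 1 point per gene above 1 FPKM, with the number of genes in parentheses and the median as a black bar. The list medians lie between −0.24 and 0.30, and single genes such as *Tph1* at 3.29 and *Lat* at −1.95 lie far from them.

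The median log2 ratio of the mast cell genes was 0.24 and that of general leukocyte markers was −0.81. Scaled to equal sums over all loci, both were negative, at −0.39 and −1.44, and the median of named loci was −0.66. All 5 general leukocyte markers had lower values in *miR-21*-/- glands, with log2 ratios from −1.04 for *Ptprc* to −0.45 for *Laptm5* and a summed level of 206 FPKM in *miR-21*+/+ and 125 FPKM in *miR-21*-/- glands. The 5 B and T cell markers ranged from −3.40 to −1.76. The 4 macrophage markers had a median of −0.15, and the 6 fibroblast markers had one of −0.16. Not all lists were lower: the 3 eosinophil markers above 1 FPKM were all higher, with a median of 0.60. Of these, *Prg2* passed the minimum through the knockout alone. The 6 endothelial markers had a median of 0.07. The 10 mast cell genes summed to 136 and 171 FPKM. The difference between these lists could not be tested with 1 value per genotype.

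Basophils share *Fcer1a*, *Ms4a2*, *Cpa3* and *Hdc* with mast cells, and their own markers were all under 1 FPKM. *Mcpt8*, the basophil protease, was listed at 0 in *miR-21*+/+ and at 0.0254 FPKM in *miR-21*-/- glands. *Prss34* was at 0.422 and 0.30 FPKM and *Cd200r3* at 0.262 and 0.411 FPKM. The 3 markers together summed to 0.685 and 0.736 FPKM. *Prss34* and *Cd200r3* were thus at levels like that of *Ms4a2* (0.401 and 0.491 FPKM), and the part of basophils in the values of the shared genes was not tested.

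**Figure D4:**
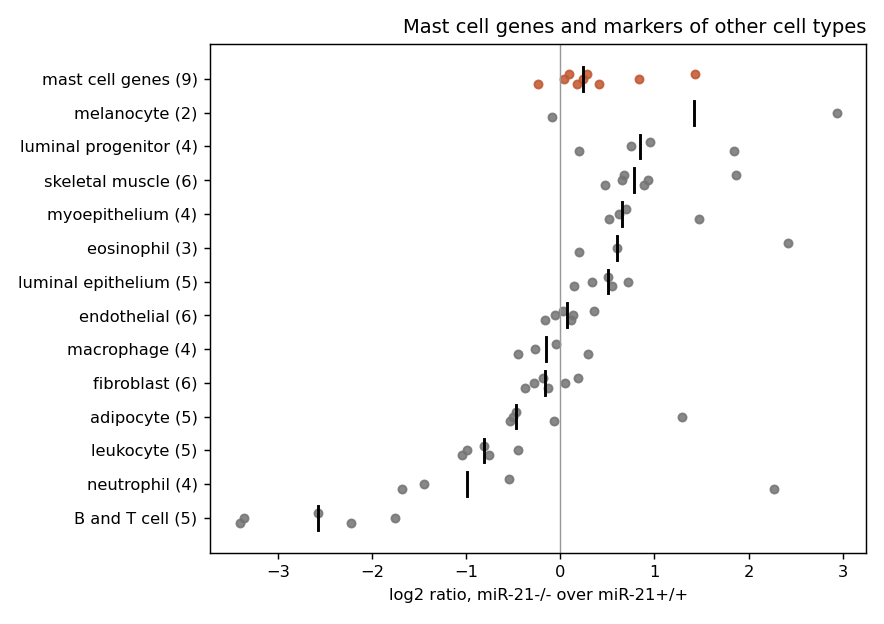
Log2 ratio (*miR-21*-/- over *miR-21*+/+) of the mast cell genes (orange) and of markers of 13 other cell types (grey), 1 point per gene above 1 FPKM, with the number of genes in parentheses and the median as a black bar. The mast cell median of 0.24 lies below those of the epithelial, muscle, eosinophil and melanocyte markers, at 0.50 and above. It lies above those of the endothelial (0.07), macrophage (−0.15), fibroblast (−0.16) and adipocyte markers (−0.48). The leukocyte (−0.81), neutrophil (−0.99) and B and T cell (−2.57) medians are lower still.

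The direction of the smaller ratios depended on how the columns were scaled. Scaled to equal sums over named loci, every log2 ratio was 0.099 larger and none of the 10 genes changed direction. Scaled so that the median of named loci above 5 FPKM was 0, every log2 ratio was 0.03 larger. Over all loci, the sum of FPKM was larger in *miR-21*-/- glands through loci without a gene name, while over named loci it was 380567 in the wild type and 355385 in the knockout.

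**Figure D5:**
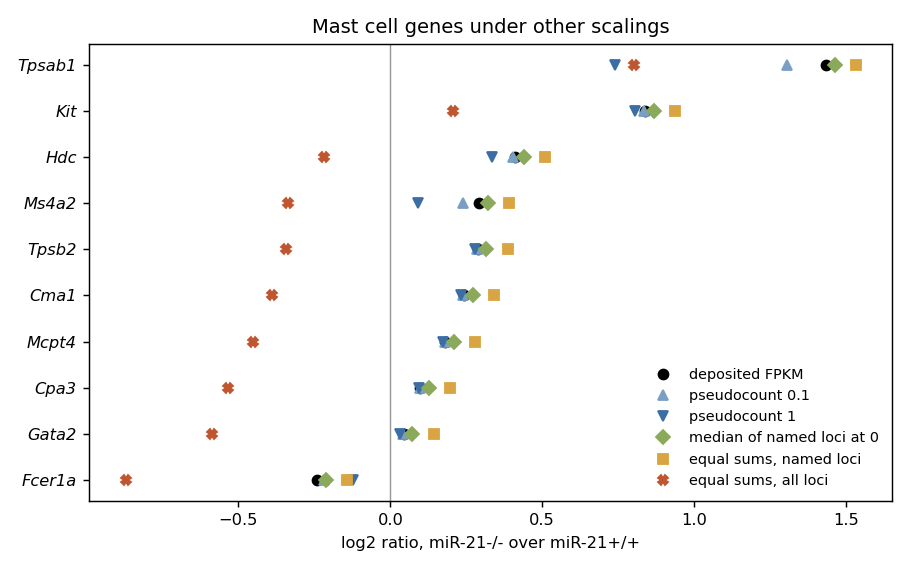
Log2 ratio (*miR-21*-/- over *miR-21*+/+) of each mast cell gene from the deposited FPKM and under 2 pseudocounts and 3 scalings of the columns. Equal sums over all loci moves each gene 0.63 to the left, which leaves *Kit* at 0.21 and *Tpsab1* at 0.80 above 0.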

How the data were processed

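Poly(A) libraries of 4 mice (2 per genotype, which the titles of the samples assign) were sequenced as single-end reads. The authors aligned them to mm9 with TopHat and deposited Cuffdiff output with 1 FPKM value per genotype. Versions, annotation and read length are not given in the sources used here. The 6 columns of the authors' own comparison (test status, fold change, test statistic, p-value, q-value and call) were not used. Depth is unknown: 31.1% and 33.0% of low values (605 and 639 values, FPKM times transcript length) lay within 0.1 of a whole multiple of the most common one, so reads were not recovered.

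Plain log2 ratios were computed without a pseudocount. Named loci were counted if above 1 FPKM in at least 1 genotype and above 0 in both (14 others were listed at 0 in 1 genotype). Of several rows for a name, that with the highest mean FPKM was used. Of the genes in lists, 2 names were not matched, and 4 loci merged with other genes were left out. The mast cell genes and lists were chosen with earlier results of these data known, and the FPKM classes after seeing values. Genes eligible to be named were the 10, list members at 1.5-fold or more, the 3 most abundant of each list and 9 fixed mast cell genes. *Mcpt1*, *Mcpt9*, *Tyrp1*, *Dct*, *Prss34*, *Cd200r3*, *Il3*, *Il9*, *Lyn*, *Adora3*, *Aldh1a3*, *Il5ra*, *Epx*, *Hrh1*, *Hrh2* and *Hrh4* fall outside that rule and were named after their values were seen. Locus starts count from 0 in the table (7567 matched annotated starts after adding 1, against 440 as printed) and are given from 1. Sequences came from mm9, GENCODE of that build and RefSeq, and blastn 2.17.0 compared transcripts (E value limit 1e-05). Python 3.11.15, numpy 2.4.6, pandas 2.3.3 and matplotlib 3.10.9 were used. Only the log2 ratio and the motif search were tested on simulated data, with planted fold changes and planted motifs and no noise.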

Additional observations from a re-analysis of the deposited data

How the results depend on the processing

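No paired analysis was possible because both mice of a genotype were combined into 1 deposited value. Fits with a replicate block, and fits without each mouse, could therefore not be run. The count of mast cell genes at 2-fold or more higher, 1 in the report, was 0 with a pseudocount of 1, 0 above 5 FPKM, 0 with equal sums over all loci and 2 at a limit of 1.5-fold. Equal sums over all loci subtracts 0.63 from every log2 ratio, which puts *Tpsab1* at 0.80. No gene was 2-fold lower under any alternative. The median log2 ratio of the set was −0.39 with equal sums over all loci and lay between 0.23 and 0.34 under the others. Changes under 0.1 on the log2 scale were taken as no move, since no error is known. By that measure 1 of the 10 genes moved with a pseudocount of 0.1 and 3 with a pseudocount of 1. A scaling shifts every gene alike, and the other 2 scalings shift the log2 ratios by 0.099 and 0.03. Both shifts are under 0.1, which fixed the count of genes moved by these scalings at 0. The median of the melanocyte markers was 1.42 over the 2 above 1 FPKM and −0.013 over all 5 without a minimum. Unknown depth limits what the low values of *Tpsab1*, *Fcer1a* and *Ms4a2* can show.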

Other observations

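Genes that receive or remove histamine were measured beside *Hdc*. *Hnmt*, which methylates histamine, was at 12.3 FPKM in *miR-21*+/+ and 10.6 FPKM in *miR-21*-/- glands. *Maob*, which oxidises its product, was at 27.0 and 20.1 FPKM, and *Slc22a3*, a transporter that takes up amines, at 13.8 and 15.2 FPKM. The receptors were at low levels, *Hrh1* at 0.778 and 0.936 FPKM and *Hrh2* at 0.549 and 0.363 FPKM, and *Hrh4* was at or under 0.0798 FPKM in both genotypes.

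Of the eosinophil markers, *Prg2*, the major basic protein, was at 0.236 FPKM in *miR-21*+/+ and 1.26 FPKM in *miR-21*-/- glands, above 1 FPKM in the knockout only, and *Ccr3*, the eotaxin receptor that mast cells can also carry, at 1.39 and 2.10 FPKM. *Epx*, eosinophil peroxidase, was at or under 0.0198 FPKM in both. *Ear1*, an eosinophil ribonuclease, was at 1.07 and 1.22 FPKM, and *Il5ra*, the interleukin 5 receptor chain, at 0.499 and 0.417 FPKM.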
